A study of Mus musculus with 9 samples.

Results

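Interferon response and antigen presentation genes were read in the submandibular gland (SMG), a salivary gland whose acinar cells secrete fluid and mucin and whose granular ducts are large in male mice. The group holds 43 genes chosen by name, of 17562 genes in the normalized table and 48733 rows in the unfiltered count table, and all 43 were found there. RNA came from whole SMGs of adult male mice on a C57BL/6 background, with 1 library per mouse from 4 wildtype (WT) and 5 *Hs3st3a1*;*Hs3st3b1* double-knockout (DKO) mice. The DKO mice lack 2 enzymes that add 3-*O*-sulfate groups to heparan sulfate, a sugar chain that binds growth factors and chemokines. They were made by zinc finger nuclease cleavage in the first exon of *Hs3st3a1* in embryos heterozygous for an *Hs3st3b1* allele with a LacZ cassette, so both losses are present in every cell from conception and the DKO mice also carry the cassette. The labels name no infection and no interferon treatment.

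Interferons are secreted proteins that warn cells of infection. Type I and type III interferons act through a complex that holds STAT2 and IRF9 and binds a DNA element called the ISRE, and type II interferon acts through an element called the GAS. The induced genes encode antiviral effectors, GTPases that attack pathogen vacuoles, and the machinery that loads peptides on class I molecules, the surface proteins that show a cell's internal peptides to CD8 T cells. Class II molecules show peptides from outside the cell to CD4 T cells, are made at rest mainly by dendritic cells, macrophages and B cells, and depend on the coactivator CIITA, which acts at promoters holding an X box and an inverted CCAAT box (Y box).

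The promoters of the 43 genes differed in these elements. A start window was matched in the RefSeq table (GRCm38.p6) for 32 of the 43 genes, and the 250 bases upstream of the start were searched on both strands. The ISRE core, written GAAANNGAAA (TTTCNNTTTC on the other strand), was present for 13 of the 32 genes (40.6%) and for 936 of all 27025 genes with a window (3.46%). It was found for 5 of 5 interferon-induced GTPase genes (*Gbp2*, *Gbp3*, *Gbp7*, *Igtp* and *Irgm1*), for 6 of 11 effector genes (*Bst2*, *Ifit1*, *Ifit3*, *Isg15*, *Oas1a* and *Rsad2*), for *Stat2* and for *B2m*, and for 0 of 2 class II genes. The GAS, written TTCNNNGAA, was present for 7 of the 32 genes (21.9%) and for 8.13% of all genes, and the same letters can overlap an ISRE core. The CCAAT box, counted in the inverted form GATTGG or the direct form CCAATC, was present for 9 of the 32 genes (28.1%) and for 16.6% of all genes. The 9 include 5 of 8 class I genes and both class II genes with a window, *H2-Aa* and *H2-Eb1*. On the strand of the gene, *B2m*, *Psmb9*, *H2-Aa* and *H2-Eb1* held the inverted form. *H2-K1*, *H2-D1* and *Tap1* held only the direct form, and the matches of *Psmb9* and *Tap1* are the same bases. A match describes the letters only and is not a measurement of binding.

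The following windows of 80 bases, 5′ to 3′ on the strand of the gene and wholly upstream of it, show these elements in capitals for the genes described most closely. The first 5 hold ISRE cores, and in *Isg15* and *Gbp3* the matches overlap in 1 run. The window of *Irf1* holds a GAS, and those of *H2-Aa* and *H2-Eb1* each hold an inverted CCAAT box. The second match in *H2-Eb1* is in the direct form. The windows are chr4:156200837-156200916 (minus strand) for *Isg15*, chr19:34640765-34640844 (plus strand) for *Ifit1*, chr19:34583353-34583432 (plus strand) for *Ifit3*, chr3:142559946-142560025 (plus strand) for *Gbp3*, chr2:122147528-122147607 (plus strand) for *B2m*, chr11:53769904-53769983 (plus strand) for *Irf1*, chr17:34287824-34287903 (minus strand) for *H2-Aa* and chr17:34305787-34305866 (plus strand) for *H2-Eb1*.
Isg15: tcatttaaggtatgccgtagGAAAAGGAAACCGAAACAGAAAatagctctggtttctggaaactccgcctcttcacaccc
Ifit1: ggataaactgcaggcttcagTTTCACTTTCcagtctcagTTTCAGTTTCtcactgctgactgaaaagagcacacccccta
Ifit3: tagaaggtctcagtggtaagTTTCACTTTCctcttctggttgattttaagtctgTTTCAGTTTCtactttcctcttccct
Gbp3: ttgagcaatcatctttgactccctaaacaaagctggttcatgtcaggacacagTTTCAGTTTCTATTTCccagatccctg
B2m: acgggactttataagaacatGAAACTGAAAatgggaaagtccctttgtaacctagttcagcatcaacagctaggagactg
Irf1: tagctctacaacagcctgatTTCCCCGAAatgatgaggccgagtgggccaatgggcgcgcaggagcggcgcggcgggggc
H2-Aa: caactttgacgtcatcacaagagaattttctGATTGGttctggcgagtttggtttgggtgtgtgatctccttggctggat
H2-Eb1: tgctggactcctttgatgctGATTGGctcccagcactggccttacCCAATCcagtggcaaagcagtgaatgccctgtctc

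In GENCODE M21 (GRCm38), 10 of the 43 genes lie in the major histocompatibility complex on chromosome 17, between 33915899 and 35267499: *Psmb8*, *Psmb9*, *Tap1*, *Tap2*, *Tapbp*, *H2-K1*, *H2-D1*, *H2-Aa*, *H2-Ab1* and *H2-Eb1*. The 3 Gbp genes lie between 142530342 and 142638008 on chromosome 3, and the 3 Ifit genes between 34550694 and 34650009 on chromosome 19. The libraries were unstranded, and 16 of the 43 genes share annotated exon bases with another gene, so reads in the shared bases cannot be told apart. *Psmb9* and *Tap1*, which face away from each other, share 212 such bases. Reads of *H2-K1* and *H2-D1* can also be split among the closely similar H2-Q and H2-T genes, and those of *Ifit1* and *Ifit3* among their copies, so their levels are uncertain.

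Total counts were 20653492 to 37870519 in WT and 17053747 to 34683690 in DKO, with WT 3 the deepest library and DKO 5 the shallowest. The 20 most abundant genes took 52.9% to 58.7% of the counts in WT and 59.4% to 70.3% in DKO. *Hs3st3a1* had 3 to 14 counts per library in WT and 0 in every DKO library, and *Hs3st3b1* had 67 to 216 counts in WT and 7 to 45 in DKO. The SMG marker *Mucl2*, a secreted mucin-like protein, had 112798 to 286053 CPM (normalized for library size), read as a check of the labelled tissue. Values below are the deposited CPM normalized by the TMM method, 1 per mouse, and fold changes and p-values come from edgeR (quasi-likelihood test on the counts) with Benjamini-Hochberg adjustment over 13842 genes. Whole glands were sequenced, so fewer cells of a type and less RNA per cell cannot be told apart.

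None of the 43 genes passed an adjusted p under 0.05 between DKO and WT in edgeR. Of all 13842 genes tested, 87 did (0.629%). The Wald test of DESeq2 also called 0 of the 43, against 616 of all genes (4.45%). At an unadjusted p under 0.05, edgeR counted 7 of the 43 (16.3%) and 2006 of all genes (14.5%), so the share among the 43 was near that of all genes. The 7 were *Ifit2*, *Ifit3*, *Gbp3*, *Gbp7*, *Psmb10* and *B2m*, with negative fold changes, and *Irgm1*, with a positive one. The log2 fold change was below 0 for 27 of the 43 genes and above 0 for 16, with a median of -0.10 and a range from -0.74 to 0.32, beside a median of 0.01 over all genes tested. For 35 of the 43 genes, the 95% confidence interval lay inside a 2-fold change in either direction. The other 8 were *Ifit3*, *Oas1a*, *Oas2*, *Mx1*, *Mx2*, *Nlrc5*, *H2-Ab1* and *H2-Eb1*, for which a 2-fold difference was not excluded by the interval.

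The values of the 5 DKO libraries lay wholly above those of the 4 WT libraries for 1 of the 43 genes, *Irgm1*, and wholly below them for none. Among all genes tested, 2.45% lay wholly above and 3.50% wholly below.

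**Figure D1:**
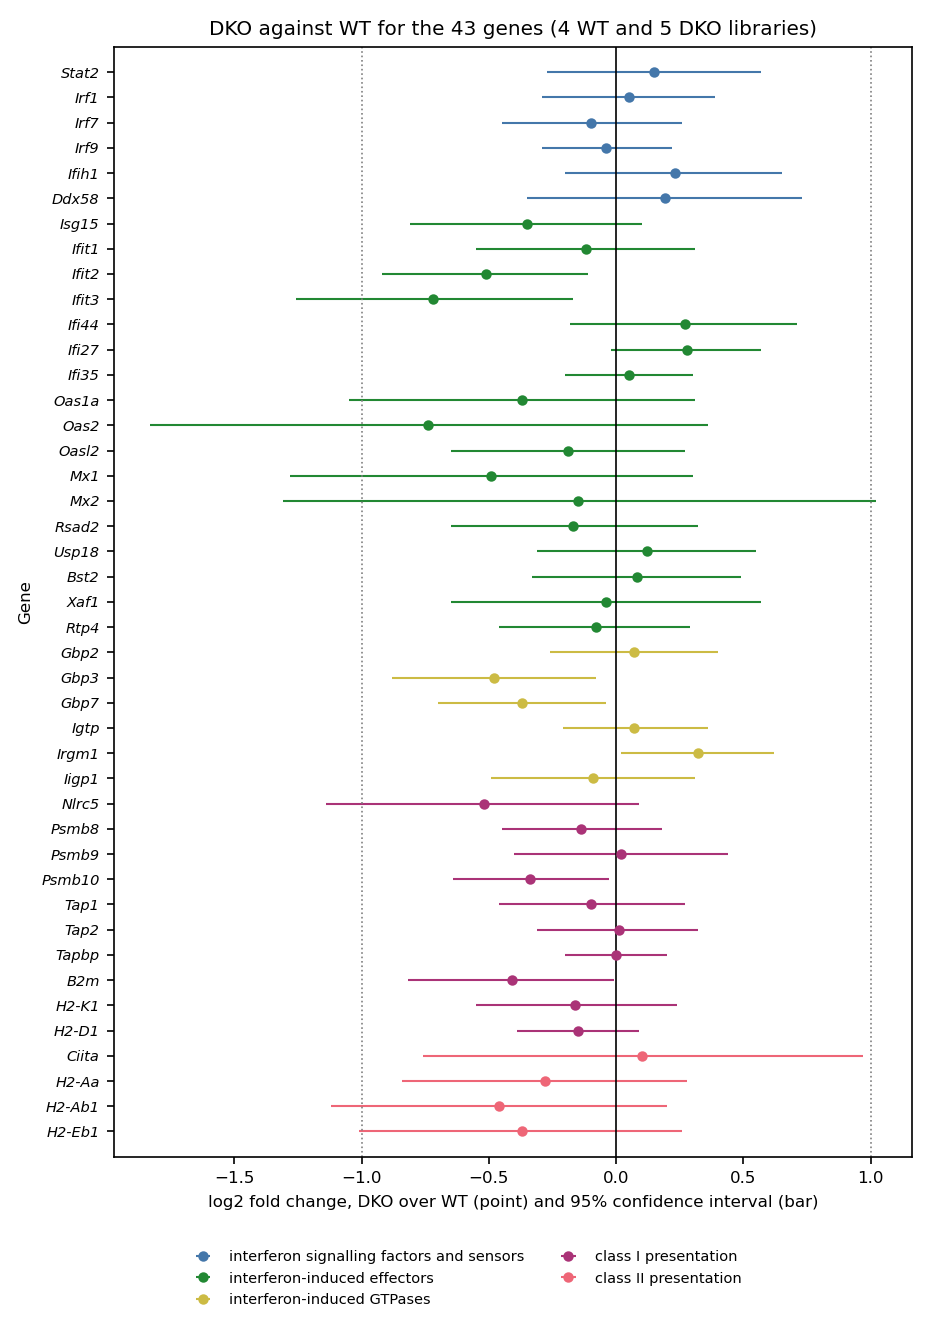
Log2 fold change of DKO over WT for each of the 43 genes (points, 4 WT and 5 DKO libraries) with its 95% confidence interval (bars), coloured by role. Dotted lines mark a 2-fold change in either direction. The points lie between -0.74 and 0.32, and 7 intervals leave out 0.

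The 9 interferon genes looked up were close to absent, and other *Ifna* genes were not looked up. Of the 9, *Ifnb1*, *Ifna1*, *Ifna2*, *Ifna4*, *Ifne* and *Ifnl3* had 0 counts in all 9 libraries. A count of 0 allows a level of up to 0.0665 to 0.217 CPM depending on the library (3 counts, counting error only). *Ifng*, the type II interferon of T and NK cells, had 3 counts in WT 3 and 0 elsewhere. *Ifnk* had 0 to 6 counts and *Ifnl2* had 1 count in 1 library. None could be tested.

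Of 21 genes for receptors, kinases and regulators beside the 43, 20 could be tested, 0 were called by edgeR (5 at an unadjusted p under 0.05), and 13 had fold changes below 0 and 7 above. DESeq2 called 2 of the 20 lower in DKO. *Irf8*, a factor of macrophages, dendritic cells and B cells, had a log2 fold change of -0.98 (adjusted p = 0.0333 by DESeq2, 0.142 by quasi-likelihood test of edgeR, Benjamini-Hochberg adjustment). *Tmem173*, which encodes the DNA sensor adaptor STING, had -0.78 (adjusted p = 0.0258 by DESeq2, 0.114 by quasi-likelihood test of edgeR, Benjamini-Hochberg adjustment). *Ifnar1*, a chain of the type I receptor that was singled out after its values were seen, lay at 11.7 to 13.5 CPM in WT and 7.03 to 11.1 CPM in DKO, without overlap, and its log2 fold change was -0.33 (adjusted p = 0.314, quasi-likelihood test of edgeR, Benjamini-Hochberg adjustment).

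For the 6 signalling factors and sensors among the 43, the median log2 fold change was 0.10, with a range from -0.10 to 0.23, and none had an unadjusted p under 0.05. *Stat2* and *Irf9*, whose products bind the ISRE together, spanned 14.2 to 27.3 and 20.1 to 28.9 CPM over the 9 libraries, with log2 fold changes of 0.15 and -0.04. *Irf1*, a factor induced through its GAS, spanned 11.8 to 19.2 CPM (log2 fold change 0.05). *Irf7*, which amplifies type I interferon production, had 34.1, 34.4, 36.0 and 34.3 CPM in WT and 29.3, 31.2, 39.7, 40.5 and 21.3 CPM in DKO. The 4 WT values were almost level, and DKO libraries lay on both sides of them. The sensors of viral RNA were *Ifih1* (MDA5), at 6.43 to 13.7 CPM, and *Ddx58* (RIG-I), at 19.0 to 39.5 CPM, with log2 fold changes of 0.23 and 0.19. Without WT 1, which had the lowest *Ifih1* level, the *Ifih1* value was 0.04.

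**Figure D2:**
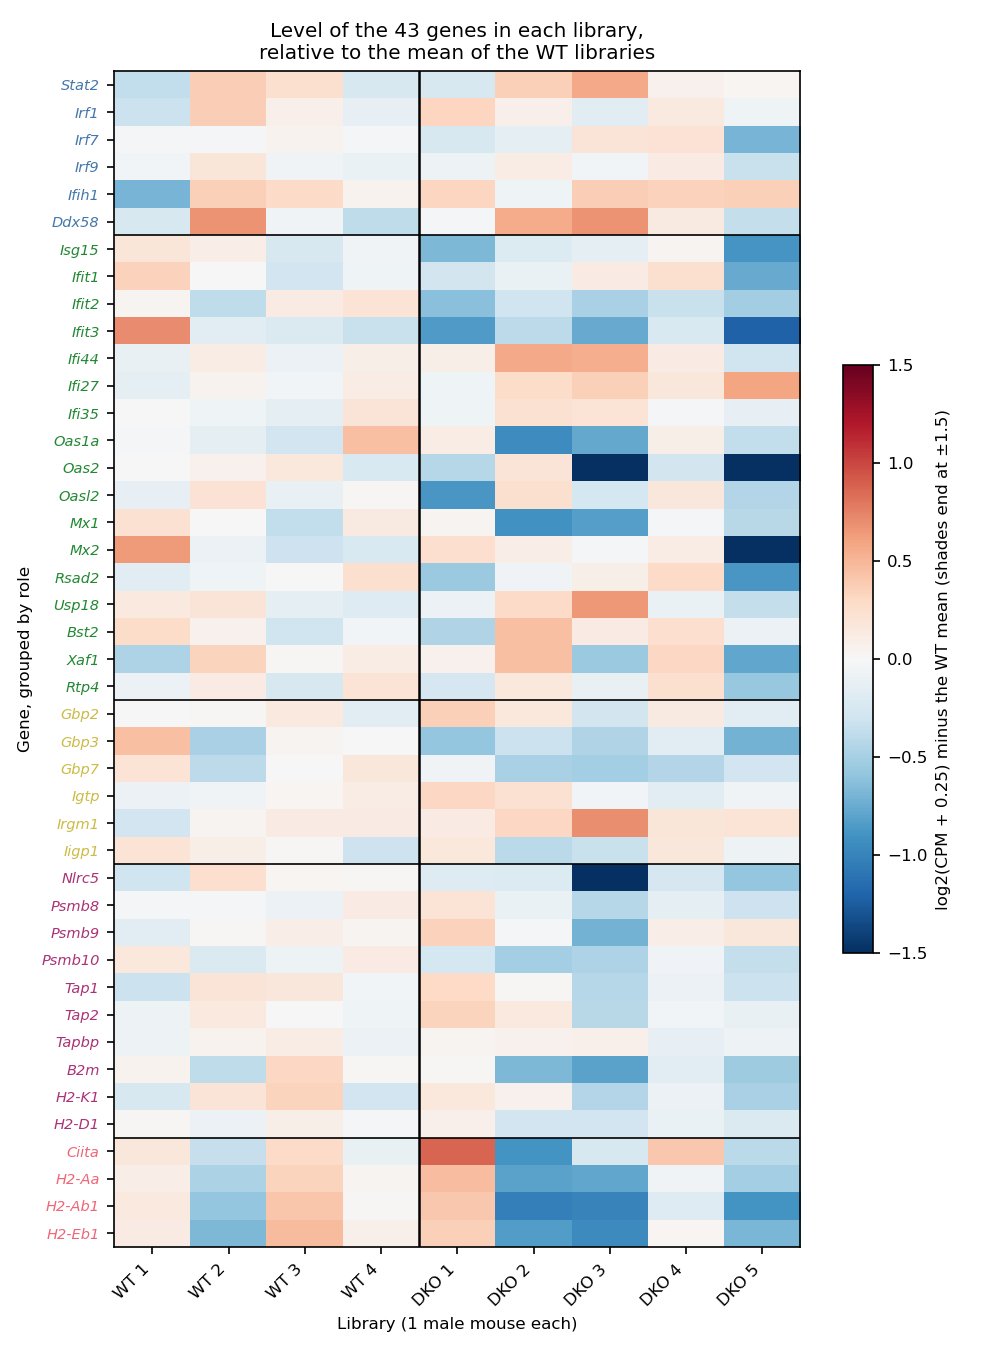
Level of each of the 43 genes (rows, grouped by role) in each of the 9 libraries (columns), as log2(CPM + 0.25) minus the mean of the WT libraries. Red is above and blue below the WT mean, and shades end at 1.5. Class II genes are low in WT 2, DKO 2, DKO 3 and DKO 5, many effector genes are low in DKO 5, and *Irgm1* is the one row whose DKO values all exceed the WT values.

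The 17 interferon-induced effectors showed a median log2 fold change of -0.15, with 12 below 0 and 5 above. By edgeR, 0 were called and 2 had an unadjusted p under 0.05. *Ifit3*, which binds IFIT1 on foreign RNA ends, had 19.0, 10.3, 9.90 and 9.14 CPM in WT and 6.28, 8.74, 6.71, 9.84 and 4.84 CPM in DKO. WT 1 stood above the other libraries, and 4 of 5 DKO libraries lay below all WT libraries. The log2 fold change was -0.72 (95% confidence interval -1.26 to -0.17, adjusted p = 0.207, quasi-likelihood test of edgeR, Benjamini-Hochberg adjustment), and -0.42 without WT 1.

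*Ifit2*, a related RNA-binding effector, had 2.90, 2.10, 3.08 and 3.26 CPM in WT and 1.72, 2.22, 1.93, 2.17 and 1.88 CPM in DKO. WT 2 lay among the DKO libraries. The log2 fold change of *Ifit2* was -0.51 (95% confidence interval -0.92 to -0.11, adjusted p = 0.228, quasi-likelihood test of edgeR, Benjamini-Hochberg adjustment). *Ifit1*, which blocks translation of RNA without a host cap, spanned 5.56 to 12.2 CPM, with a log2 fold change of -0.12 (95% confidence interval -0.55 to 0.31). *Isg15*, a ubiquitin-like protein, had 5.00, 4.69, 3.66 and 4.21 CPM in WT and 2.63, 3.74, 3.91, 4.50 and 2.24 CPM in DKO, with DKO 1 and DKO 5 below all WT libraries and a log2 fold change of -0.35 (standard error 0.21). *Usp18*, which removes ISG15 and damps the type I receptor, spanned 7.29 to 14.9 CPM (log2 fold change 0.12).

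*Ifi27* was the most abundant effector per length, with a mean of 142 CPM per kb of exon in WT, and encodes a small membrane protein. It had 189, 216, 202 and 225 CPM in WT and 198, 252, 267, 233 and 312 CPM in DKO. All DKO libraries but DKO 1 lay above all WT libraries. The log2 fold change was 0.28 (95% confidence interval -0.02 to 0.57, adjusted p = 0.375, quasi-likelihood test of edgeR, Benjamini-Hochberg adjustment). DKO 5 held its highest value while holding the lowest for 9 of the 17 effectors. Among all genes tested, DKO 5 was the lowest library for 14.7%.

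The oligoadenylate synthetase genes *Oas1a* and *Oas2*, whose products activate RNase L on double-stranded RNA, were low, at no more than 2.36 CPM. *Oas1a* spanned 0.739 to 2.36 CPM and *Oasl2*, a family member, 6.13 to 13.6 CPM, with log2 fold changes of -0.37 and -0.19. *Oas2* had 26, 32, 59 and 22 counts in WT and 27, 33, 3, 23 and 2 counts in DKO. DKO 3 and DKO 5 stood apart from the 7 others, and the log2 fold change of -0.74 had a 95% confidence interval from -1.83 to 0.36. *Mx1* and *Mx2*, dynamin-like GTPases that block viruses, had at most 1.30 CPM, with log2 fold changes of -0.49 and -0.15. C57BL/6 mice carry a deletion that inactivates *Mx1*. *Mx2* had 14 to 29 counts in WT and 32, 20, 16, 21 and 0 counts in DKO, with the 0 in the shallowest library.

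The remaining effectors had intervals that included 0. *Rsad2* (viperin, which makes a chain-terminating nucleotide) spanned 3.39 to 7.90 CPM, *Bst2* (tetherin, which holds virions at the membrane) 5.58 to 10.7 CPM, *Xaf1*, linked to cell death, 1.73 to 4.39 CPM, and *Rtp4* 6.93 to 12.3 CPM. Their log2 fold changes were -0.17, 0.08, -0.04 and -0.08. *Ifi44* spanned 2.24 to 4.31 CPM (log2 fold change 0.27) and *Ifi35* 19.3 to 24.9 CPM (0.05).

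Of 34 other interferon-induced genes, 30 could be tested, 19 had fold changes below 0 and 11 above, and 0 were called by edgeR (7 at an unadjusted p under 0.05). Their median was -0.10. *Isg20*, an exonuclease of RNA and the gene with the largest absolute change among them, had 9.07, 3.70, 8.60 and 5.80 CPM in WT and 2.72, 1.77, 3.08, 3.99 and 2.96 CPM in DKO. Only WT 2 and DKO 4 broke the separation. The log2 fold change was -1.23 (standard error 0.28), and the adjusted p was 0.0625 in edgeR (quasi-likelihood test) and 0.00237 in DESeq2, both with Benjamini-Hochberg adjustment. *Ifi204*, also without overlap and named after its values were seen, lay at 1.52 to 2.61 CPM in WT and 0.650 to 1.47 CPM in DKO.

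The 6 interferon-induced GTPases had the smallest median spread of the groups. Their summed level was 64.8 to 73.9 CPM in WT and 66.6 to 77.9 CPM in DKO. The median log2 fold change was -0.01. By edgeR 0 were called, and 3 of the 6 had an unadjusted p under 0.05, in opposite directions. The guanylate-binding proteins *Gbp3* and *Gbp7* were on one side. *Gbp3* had 14.2, 7.28, 10.6 and 10.3 CPM in WT and 6.81, 8.21, 7.45, 9.20 and 6.21 CPM in DKO, with WT 2 among the DKO libraries (log2 fold change -0.48, standard error 0.18). *Gbp7* had 15.6, 10.2, 13.5 and 15.2 CPM in WT and 13.0, 9.56, 9.38, 9.84 and 11.0 CPM in DKO (-0.37, standard error 0.15). *Gbp2*, in the same cluster on chromosome 3, spanned 5.56 to 8.73 CPM, with a log2 fold change of 0.07 (95% confidence interval -0.26 to 0.40).

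*Irgm1*, a regulator that keeps the other immunity-related GTPases off host membranes, was on the other side. It had 22, 27.7, 29.2 and 29.2 CPM in WT and 29.3, 33.3, 43.8, 30.6 and 31.0 CPM in DKO. The lowest DKO library and the highest WT libraries nearly touched, and DKO 3 stood above the rest. The log2 fold change was 0.32 (95% confidence interval 0.02 to 0.62, adjusted p = 0.314, quasi-likelihood test of edgeR, Benjamini-Hochberg adjustment), and 0.21 without DKO 3. *Igtp*, another immunity-related GTPase, spanned 7.86 to 11.0 CPM, with a log2 fold change of 0.07. *Iigp1*, an effector GTPase that damages pathogen vacuoles, spanned 3.00 to 4.74 CPM (log2 fold change -0.09).

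The class I presentation genes showed a median log2 fold change of -0.14 over 10 genes, with 7 below 0 and 3 above. By edgeR, 0 were called and 2 had an unadjusted p under 0.05. The heavy chain *H2-K1* had 341, 457, 504 and 330 CPM in WT and 449, 420, 295, 377 and 287 CPM in DKO. The heavy chain *H2-D1* had 259, 241, 271 and 252 CPM in WT and 270, 209, 210, 239 and 220 CPM in DKO, with all DKO libraries but DKO 1 below the WT libraries. Their log2 fold changes were -0.16 (95% confidence interval -0.55 to 0.24) and -0.15 (-0.39 to 0.09). *B2m*, the light chain of every class I molecule, had 121, 89.0, 144 and 118 CPM in WT and 118, 73.1, 66.7, 104 and 80.5 CPM in DKO. DKO 2, DKO 3 and DKO 5 lay below all WT libraries. Its log2 fold change was -0.41 (95% confidence interval -0.82 to -0.01, adjusted p = 0.337, quasi-likelihood test of edgeR, Benjamini-Hochberg adjustment). Per kb of exon, *B2m* and *H2-K1* stood at nearly the same mean level in WT, 137 and 139 CPM per kb, and *H2-D1* at 99.1 CPM per kb. The lengths used were those of all annotated exons together (860, 2938 and 2579 bases), so these levels and their near-equality depend on the annotation.

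The loading machinery was less abundant per length than the chains. *Tap1* and *Tap2*, which pump peptides into the endoplasmic reticulum, spanned 9.61 to 16.0 and 18.0 to 30.4 CPM, with log2 fold changes of -0.10 and 0.01. *Tapbp* (tapasin), which bridges the pump and the class I molecule, was the steadiest of the 43 genes, at 65.6, 72.0, 75.2 and 65.5 CPM in WT and 71.6, 72.9, 73.2, 63.8 and 65.9 CPM in DKO. Its log2 fold change was 0.00 (95% confidence interval -0.20 to 0.20). The immunoproteasome subunits *Psmb8* and *Psmb9* spanned 5.15 to 8.15 and 3.86 to 8.27 CPM, with log2 fold changes of -0.14 and 0.02. The third subunit, *Psmb10*, had 8.40, 6.40, 7.11 and 8.20 CPM in WT and 6.19, 5.17, 5.38, 7.19 and 5.78 CPM in DKO (-0.34, standard error 0.14). All DKO libraries but DKO 4 lay below the WT libraries.

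*Nlrc5*, the coactivator of class I genes, had 3.48, 5.22, 4.43 and 4.38 CPM in WT and 3.77, 3.74, 1.19, 3.60 and 2.82 CPM in DKO. DKO 3 had the lowest value, and the log2 fold change of -0.52 had a 95% confidence interval from -1.14 to 0.09. DKO 3 was the lowest library for 6 of the 10 class I genes, and for 19.1% of all genes tested. Of 12 other class I genes, which include chaperones and minor heavy chains, 11 could be tested, 8 had fold changes below 0 and 3 above, and 0 were called by edgeR or DESeq2 (4 at an unadjusted p under 0.05 in edgeR). Their median was -0.25.

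Class II genes had the largest spread between mice of any of these groups. *H2-Ab1*, a beta chain, had 110, 66.4, 133 and 101 CPM in WT and 132, 48.7, 49.4, 86.9 and 53.4 CPM in DKO. *H2-Aa*, its alpha chain partner, had 76.6, 51.4, 90.2 and 73.6 CPM in WT and 98.6, 40.9, 41.6, 68.7 and 50.0 CPM in DKO. *H2-Eb1*, the beta chain of the second class II molecule, had 74.2, 42.7, 95.1 and 71.7 CPM in WT and 87.7, 38.1, 35.0, 69.8 and 42.4 CPM in DKO. The same libraries were high and low for the 3 genes: WT 3 and DKO 1 were the highest, and WT 2, DKO 2, DKO 3 and DKO 5 the lowest. *Ciita* had 1.30, 0.838, 1.44 and 1.03 CPM in WT and 2.28, 0.493, 0.919, 1.58 and 0.794 CPM in DKO, with the same 4 libraries lowest.

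The difference between genotypes was within this spread. The log2 fold changes of *H2-Ab1*, *H2-Aa*, *H2-Eb1* and *Ciita* were -0.46, -0.28, -0.37 and 0.10, with standard errors of 0.30, 0.26, 0.29 and 0.40. Single libraries moved these values. Without DKO 1, the highest DKO library, they were -0.78, -0.53, -0.61 and -0.27, so that *Ciita* changed sign. Without WT 3, the highest WT library, they were -0.31, -0.16, -0.20 and 0.24. The interval of *H2-Ab1* ran from -1.12 to 0.20, and the adjusted p-values of the 4 genes lay between 0.550 and 0.940 (quasi-likelihood test of edgeR, Benjamini-Hochberg adjustment). Within ranges of the number in the sample titles, which the labels do not explain, the median difference of the 4 genes was 0.03 in log2 CPM for the lowest numbers (2 WT and 2 DKO mice), -0.71 for the middle numbers (1 WT and 2 DKO) and -0.93 for the highest (1 WT and 1 DKO). For the effectors the medians in these ranges were -0.19, -0.02 and -0.16, and for class I genes 0.07, -0.22 and -0.49.

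**Figure D3:**
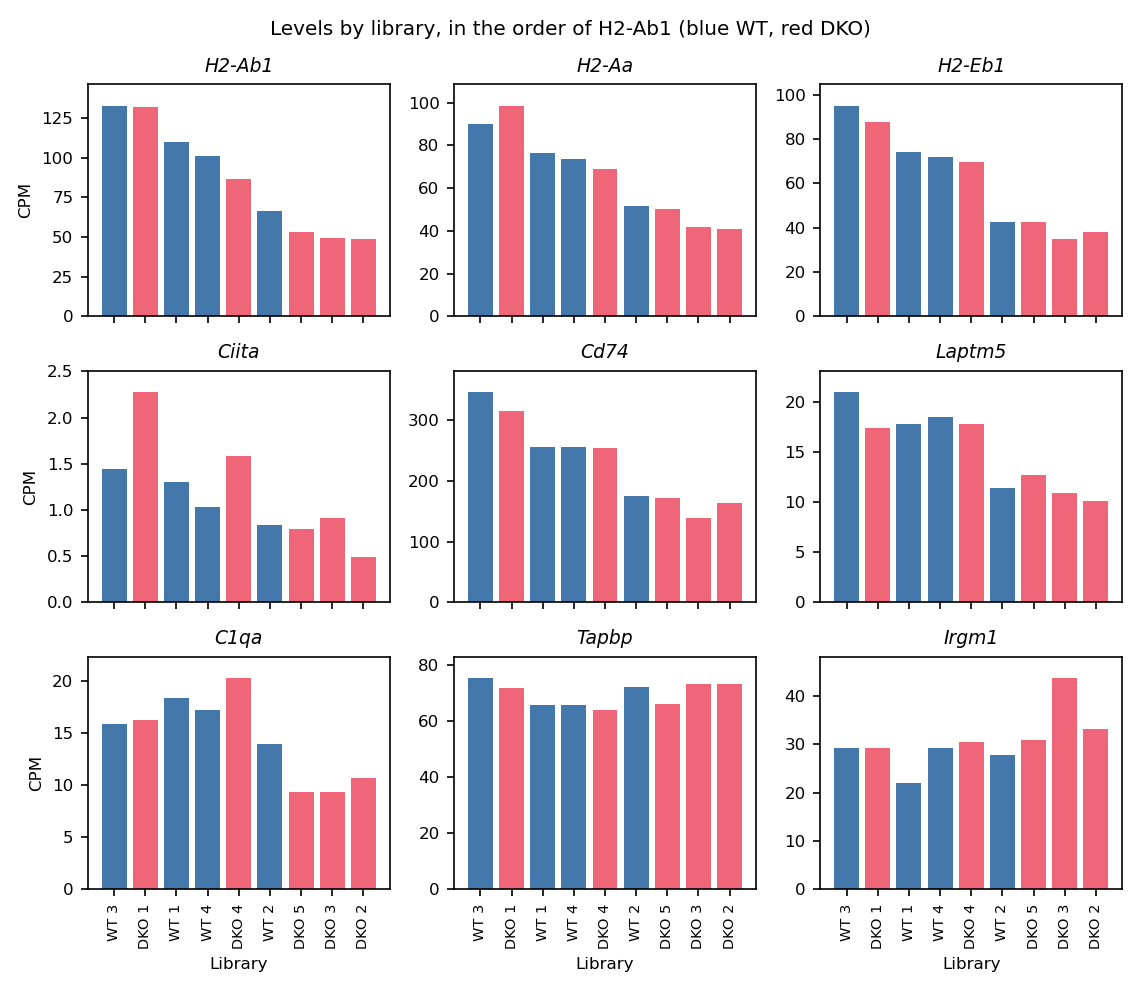
CPM of class II genes (*H2-Ab1*, *H2-Aa*, *H2-Eb1*, *Ciita*, *Cd74*), of the leukocyte gene *Laptm5*, of the macrophage gene *C1qa*, and of *Tapbp* and *Irgm1*, in each of the 9 libraries in the order of *H2-Ab1*. Bars are single libraries, blue for WT and red for DKO. The 4 libraries on the right are the lowest for the first 7 genes, not for *Tapbp* or *Irgm1*. *Laptm5* and *C1qa* come from lists in which 3 of 5 and 6 of 8 tested markers had these 4 lowest libraries.

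The 4 libraries that were lowest for class II genes were looked up in all genes after this pattern was seen, as a description. Of all genes tested, 1.88% had exactly these libraries as their 4 lowest. Among the other class II genes it was 5 of 10, namely *Cd74*, *H2-DMa*, *H2-DMb1*, *H2-DMb2* and *Rfx5*. *Cd74*, the invariant chain that guides class II molecules, had 255, 175, 346 and 256 CPM in WT and 314, 163, 138, 253 and 171 CPM in DKO. Of the 6 GTPase genes and the 17 effectors it was 0, and of the 10 class I genes it was 1, *B2m*. Of the 20 tested genes for receptors, kinases and regulators it was 3. Among these 3 were *Irf8* and *Tmem173*, the genes of that list called by DESeq2. Of the 30 other interferon-induced genes tested it was 2.

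Several markers of leukocytes were lowest in the same libraries. These 4 libraries were lowest for 3 of 5 general leukocyte markers (*Ptprc*, *Laptm5* and *Cd53*) and for 6 of 8 tested markers of macrophages and dendritic cells (*Cd68*, *C1qa*, *C1qb*, *C1qc*, *Itgax* and *Cd209a*). They were lowest for 1 of 2 tested B and plasma cell markers and 1 of 2 tested T and NK cell markers. For fibroblast, endothelial and SMG epithelial markers the counts were 1 of 5, 0 of 5 and 0 of 9. The summed level of the 5 leukocyte markers was 27.1 to 40.5 CPM in WT and 21.3 to 40.4 CPM in DKO, and that of 10 macrophage and dendritic cell markers 95.1 to 138 CPM in WT and 72.5 to 127 CPM in DKO. *Ms4a1*, a defining marker of B cells, was near 0, with 0 to 2 counts per library, and the summed level of 8 T and NK cell markers was 3.31 to 6.56 CPM in WT and 2.24 to 6.40 CPM in DKO. The other 5 B and plasma cell markers summed to 60.6 to 154 CPM in WT and 11.0 to 191 CPM in DKO, nearly all of it from *Jchain*, the joining chain of secreted IgA. No marker in these lists was at 0 in all libraries. The part of leukocyte number in the class II values was not tested.

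Of 12 other class II genes, 10 could be tested, 6 had fold changes below 0 and 4 above, and 0 were called by edgeR or DESeq2 (1 at an unadjusted p under 0.05 in edgeR). *H2-Oa*, which tunes peptide exchange in B cells, had the largest absolute log2 fold change, -1.61 (standard error 0.69), at 0.229 to 1.65 CPM in WT and 0.0722 to 0.789 CPM in DKO. *H2-Ea-ps*, the alpha chain that would pair with the *H2-Eb1* product, had 0 counts in all 9 libraries. Mice of the C57BL/6 haplotype carry a deletion in that gene and make no such alpha chain, and *H2-Eb1* was read at 35.0 CPM or more in libraries without a transcript of its partner.

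The spread between libraries differed by role. The SD of log2 CPM between libraries of one genotype, pooled over WT and DKO, had a median of 0.31 over the 43 genes and 0.27 over all genes tested. It was 0.55 for class II genes, 0.35 for effectors, 0.31 for signalling factors and sensors, 0.25 for class I genes and 0.23 for the GTPases. *Tapbp* had the lowest SD, 0.09, at percentile 2.18 of all genes tested, and *Mx2* the highest, 1.26. The median SD of the 17 effectors was 0.21 within WT and 0.40 within DKO, and that of the 10 class I genes 0.15 and 0.29, beside 0.23 and 0.28 for all genes tested. DKO 5 for the effectors and DKO 3 for the class I genes were the lowest DKO libraries, at -0.78 and -0.58 in mean log2 CPM against the WT mean. This mean weighs genes near 0 counts like the others. In summed CPM, DKO 5 was instead the highest of all libraries for the effectors, at 385 CPM, of which *Ifi27* held 312 CPM. DKO 3 was the lowest for the class I genes in summed CPM too, at 688 CPM.

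**Figure D4:**
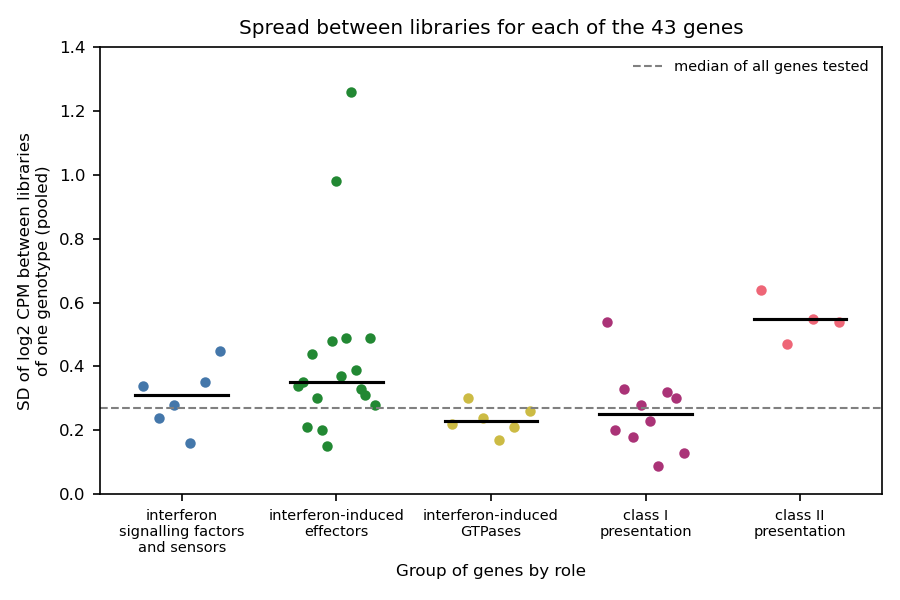
SD of log2 CPM between libraries of one genotype (pooled over 4 WT and 5 DKO libraries) for each of the 43 genes, by role. Points are genes, black lines are the medians of each group (0.31, 0.35, 0.23, 0.25 and 0.55 from left to right), and the dashed line is the median of all genes tested, 0.27.

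Markers of the other cells in the gland were read with the same fit. The endothelial markers showed a median log2 fold change of 0.27 (4 of 5 above 0), the fibroblast markers -0.64 (5 of 5 below 0), and the SMG epithelial markers -0.19 (5 of 9 below 0), and none was called by edgeR. DESeq2 called 6 of the 9 epithelial markers. Their log2 fold changes ran from -2.33 to 0.64, with 3 of 9 at an absolute value of at least 1, so the median hides shifts of single markers. For 4 of the 9, all DKO libraries lay below all WT libraries, and for 0 above, beside 3.50% and 2.45% of all genes tested. The part of these cell types in the values of the 43 genes was not tested.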

How the data were processed

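RNA from SMGs of 4 WT and 5 DKO adult male mice was sequenced by the authors with Nextera XT on a HiSeq2500, 1 library per mouse. The submitters' processing notes name STAR 2.5.2a, edgeR, limma and DESeq2 and the builds GRCm38 and mm10 (also GRCh38). The authors deposited raw counts (48733 rows), the same counts filtered to 17562 rows, and a table of TMM-normalized values, a signal made by dividing each library's filtered counts by 1 factor (100.0% of values gave whole reads within 0.001).

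Here the unfiltered counts were analysed with edgeR 4.0.16 in R 4.3.3 (TMM factors, filterByExpr, quasi-likelihood test with genotype as the single term, Benjamini-Hochberg adjustment over 13842 genes, threshold 0.05). The paper's methods name DESeq2, which was run as an alternative (1.42.0), as was limma 3.58.1. Levels per kb used the union of GENCODE M21 exons. All 43 genes were named by rule. Of the wider lists (interferon ligands, receptors and signalling, other interferon-induced, class I and class II genes), genes called, those with an absolute log2 fold change of at least 1, and *H2-Ea-ps*, *Cd74*, *Ifng* and *Ifnb1* were named, and the values of some other genes of the lists are not reported here. Marker lists covered leukocytes, B, T and NK cells, macrophages and dendritic cells, endothelium, fibroblasts and SMG epithelium. The genes and lists were chosen with earlier results of these data known. The fits were tested on simulated data. Each library is 1 mouse. Female libraries were not analysed here.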

Additional observations from a re-analysis of the deposited data

Results flagged for a closer look

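Among the 43 genes, 86 groups of 4 WT or 5 DKO values were examined for a library far from the others of its genotype, and 5 were found, where chance gives about 1 in 20 groups. *Irf7* stood at 36.0 CPM in WT 3 against 34.4 CPM in the nearest WT library, a small gap in a nearly level group. *Ifih1* stood at 10.1 CPM in DKO 2 against 13.2 CPM in the nearest DKO library. *Ifit3* stood at 19.0 CPM in WT 1 against 10.3 CPM. *Mx2* was at 0 CPM in DKO 5 against 0.735 CPM. *Irgm1* stood at 43.8 CPM in DKO 3 against 33.3 CPM.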

How the results depend on the processing

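The 43 genes were refitted under 20 alternatives, and 0 of them were called in any. All 860 of these values moved by less than 1 SD between libraries, but leaving out 1 library can hardly move a value that far. This bar therefore does not measure stability. Of the genes, 28 (21 below 0 and 7 above) kept their sign throughout, and 15 changed sign in at least 1 alternative. The count of all genes called was less stable than the 0 calls among the 43. It was 5 with upper-quartile factors and 5 without the 20 most abundant genes, 347 without a filter on low counts, 13 in the filtered table, 616 by DESeq2, 148 by limma-voom with quality weights, and 332 with the range of the title number as a term. With 1 library left out in turn it lay between 0 and 441. The count of the 43 genes without overlap then lay between 1 and 4 (2.33% to 9.30%), beside 7.27% to 11.9% of all genes tested, and it cannot fall when a library is left out. The median of each group of genes moved by less than 1 SD in all 100 refits, a bar that is as hard to reach by leaving out 1 library.

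The labels number the mice from 1 in both genotypes. With this number as a replicate block (pairs 1 to 4), 0 genes were called, and 0 of the 43. Deviations from the group means of same-numbered libraries correlated at 0.15, 0.298, 0.074 and 0.014. The values of pairs 1 and 2 were the highest of all combinations of a WT and a DKO library. The next was 0.097, for WT 3 with DKO 5. The labels name no pairs, so whether same-numbered mice belong together cannot be told.

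*Mx1*, *Mx2*, *Oas1a*, *Oas2* and *Ciita*, at 0 to 78 counts per library, and *H2-Ab1* and *H2-Eb1*, at higher counts, had wider intervals than any class I gene. The part of depth in these intervals was not tested.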

Other observations

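*Ifi202b*, an interferon-induced gene of the p200 family looked at after its values were seen, had 84, 16, 2 and 20 counts in WT and 63, 25, 1, 67 and 0 counts in DKO. Its pooled SD of log2 CPM was 2.24, beside 0.27 for the median gene tested. Both genotypes held libraries with 0 to 2 counts (WT 3, DKO 3 and DKO 5) and libraries with 63 to 84. WT 3, among the lowest for *Ifi202b*, was the highest library for *H2-Ab1*.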
